A study of Taxus mairei and Taxus cuspidata and Taxus x media with 9 samples.

Results

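Galactinol synthase (GOLS) unigenes were taken from the co-assembled twig transcriptome of 3 *Taxus* species. A unigene is an assembled sequence that stands for a gene. All unigenes whose deposited gene name starts with GOLS were included, which gave 8 of 33895 unigenes, 13551 of which carry a gene name. No further unigene was annotated as galactinol synthase in another column, and no other unigene belonged to the same assembly components (0 in both cases). One of the 8, GOLS1 comp23309_c0, was chosen by its measured values: it had been selected on its large difference between *T. mairei* and *T. cuspidata*. Its levels and fold changes are therefore given as a description, without a test. The other 7 were chosen by name only.

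Galactinol synthase is an enzyme of glycosyltransferase family GT8. It transfers galactose from UDP-galactose to myo-inositol, and its product galactinol is the galactose donor for raffinose and the larger sugars of the raffinose family. These sugars serve plants as transport and storage carbohydrates and accumulate under drought and cold. In Arabidopsis, several GolS genes are induced by drought, cold or heat.

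Fresh twigs with wood and needles were harvested from cultivated trees of *T. media* (a hybrid, labelled Taxus x media), *T. mairei* and *T. cuspidata*, all 3 years old, with no treatment named and 1 set of chamber conditions in the labels, and 3 poly(A) RNA libraries per species were sequenced as biological replicates. The sources do not state which trees went into which library. Counted reads ranged from 32783233 to 41647131 in *T. media* and from 39192663 to 44821305 in *T. cuspidata*, and were 43480998 and 37887549 in the *T. mairei* libraries with counts. For *T. mairei* replicate 3 only TPM and RPKM were used, so it is in the TPM values but not in the tests. TPM divide the reads by sequence length and give every library an equal total. The photosystem II unigene psbW comp10329_c0, from a gene of photosynthetic tissue, was found in all 9 libraries, but far lower in *T. mairei*. It had 1076.03 to 2135.57 TPM in *T. media*, 9.97 to 16.62 TPM in *T. mairei* and 1958.19 to 2506.79 TPM in *T. cuspidata*. Another psbW unigene, comp16051_c0, had a mean of 82.0 TPM in *T. mairei*, 0.023 TPM in *T. media* and 0.093 TPM in *T. cuspidata*. Whether the tissue was alike in the 3 species was not tested, and no wood marker was examined. In such bulk tissue, fewer cells of a type and less RNA per cell cannot be told apart.

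The names divide the family into GOLS1 (comp23309_c0, comp27164_c0 and comp170939_c0), GOLS2 (comp23561_c0) and GOLS4 (comp28506_c0, comp30521_c0, comp26584_c0 and comp30521_c1). GOLS1 comp23309_c0 is 1422 bp long. Its level was 123.13, 206.59 and 146.61 TPM in *T. media*, 0.03, 0.24 and 0.14 TPM in *T. mairei*, and 739.29, 269.72 and 408.49 TPM in *T. cuspidata*. The 3 *T. mairei* libraries were near 0, with 3 and 22 reads in those with counts, and the ranges of the 3 species did not overlap. The fitted log2 fold changes were 9.51 for *T. media* vs. *T. mairei*, -1.64 for *T. media* vs. *T. cuspidata* and -11.16 for *T. mairei* vs. *T. cuspidata*. As *T. mairei* had so few reads, the size of the first and the last depended on the libraries and the scale: they were 8.62 and -10.26 without *T. mairei* replicate 1, 11.68 and -13.32 without *T. mairei* replicate 2, and 7.11 and -8.58 with limma on log2(TPM + 1). Among all unigenes ordered by mean TPM, it was number 776 in *T. media*, 30966 in *T. mairei* and 263 in *T. cuspidata*.

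Other GOLS unigenes were expressed in *T. mairei*, and 5 of them had their highest level there. The share of all unigenes with their highest level in *T. mairei* was not computed. GOLS4 comp28506_c0 (1224 bp) reached 2.05, 2.89 and 1.24 TPM in *T. media*, 598.86, 610.36 and 719.45 TPM in *T. mairei*, and 4.31, 2.51 and 7.44 TPM in *T. cuspidata*. Every *T. mairei* library was far above all others, while *T. media* and *T. cuspidata* overlapped. It was the GOLS unigene with the highest mean in *T. mairei*, number 144 among all unigenes there, against number 28192 in *T. media* and 19095 in *T. cuspidata*.

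GOLS2 comp23561_c0 (243 bp) had 8.91, 9.1 and 8.29 TPM in *T. media*, 564.16, 495.8 and 631.37 TPM in *T. mairei*, and 10.93, 8.19 and 4.2 TPM in *T. cuspidata*. The *T. mairei* libraries again lay apart, and the other two species overlapped. Its effective length, the part of a sequence on which a read can start, is only 49.97 bases, so that few reads give a high TPM: the *T. mairei* libraries held 2402.5 and 1821.01 estimated reads of it.

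GOLS4 comp30521_c0 (3392 bp) was found at a substantial level in all 3 species, with 25.67, 19.72 and 13.26 TPM in *T. media*, 551.03, 510.42 and 529.5 TPM in *T. mairei*, and 136.45, 158.91 and 135.27 TPM in *T. cuspidata*. The 3 species did not overlap. This unigene has 26 assembled transcripts, more than any other of the 8. The length implied by its reads and TPM was 371.0 and 369.0 bases in *T. mairei* and 736.6 to 778.2 bases in *T. cuspidata*, and its TPM ratio of 3.69 between these species is larger than the ratio fitted to the counts, given further on.

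GOLS4 comp26584_c0 (1217 bp) had 0.45, 0.54 and 0.08 TPM in *T. media*, 23.64, 30.64 and 34.65 TPM in *T. mairei*, and 0.31, 0.14 and 0.0 TPM in *T. cuspidata*. GOLS4 comp30521_c1 (364 bp) was at 0.0, 0.08 and 0.0 TPM in *T. media*, 65.26, 60.82 and 193.55 TPM in *T. mairei*, and 0 TPM in the *T. cuspidata* libraries. Both were nearly confined to *T. mairei*, where replicate 3 stood well above the others for comp30521_c1.

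The remaining 2 GOLS1 unigenes had other patterns. GOLS1 comp27164_c0 (1534 bp) had 10.89, 10.23 and 9.29 TPM in *T. media*, 9.46, 8.64 and 29.32 TPM in *T. mairei*, and 139.87, 178.16 and 197.83 TPM in *T. cuspidata*. It was highest in *T. cuspidata*, while *T. media* and *T. mairei* overlapped. GOLS1 comp170939_c0 (257 bp) had 16.79, 14.13 and 8.38 TPM in *T. media*, 0.58, 0.0 and 7.89 TPM in *T. mairei*, and 1.37, 0.0 and 2.57 TPM in *T. cuspidata*. The *T. media* libraries were highest, but only narrowly above *T. mairei* replicate 3. Its values rest on few reads: 124 in *T. media*, 3 in the *T. mairei* libraries with counts and 13 in *T. cuspidata*.

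**Figure D1:**
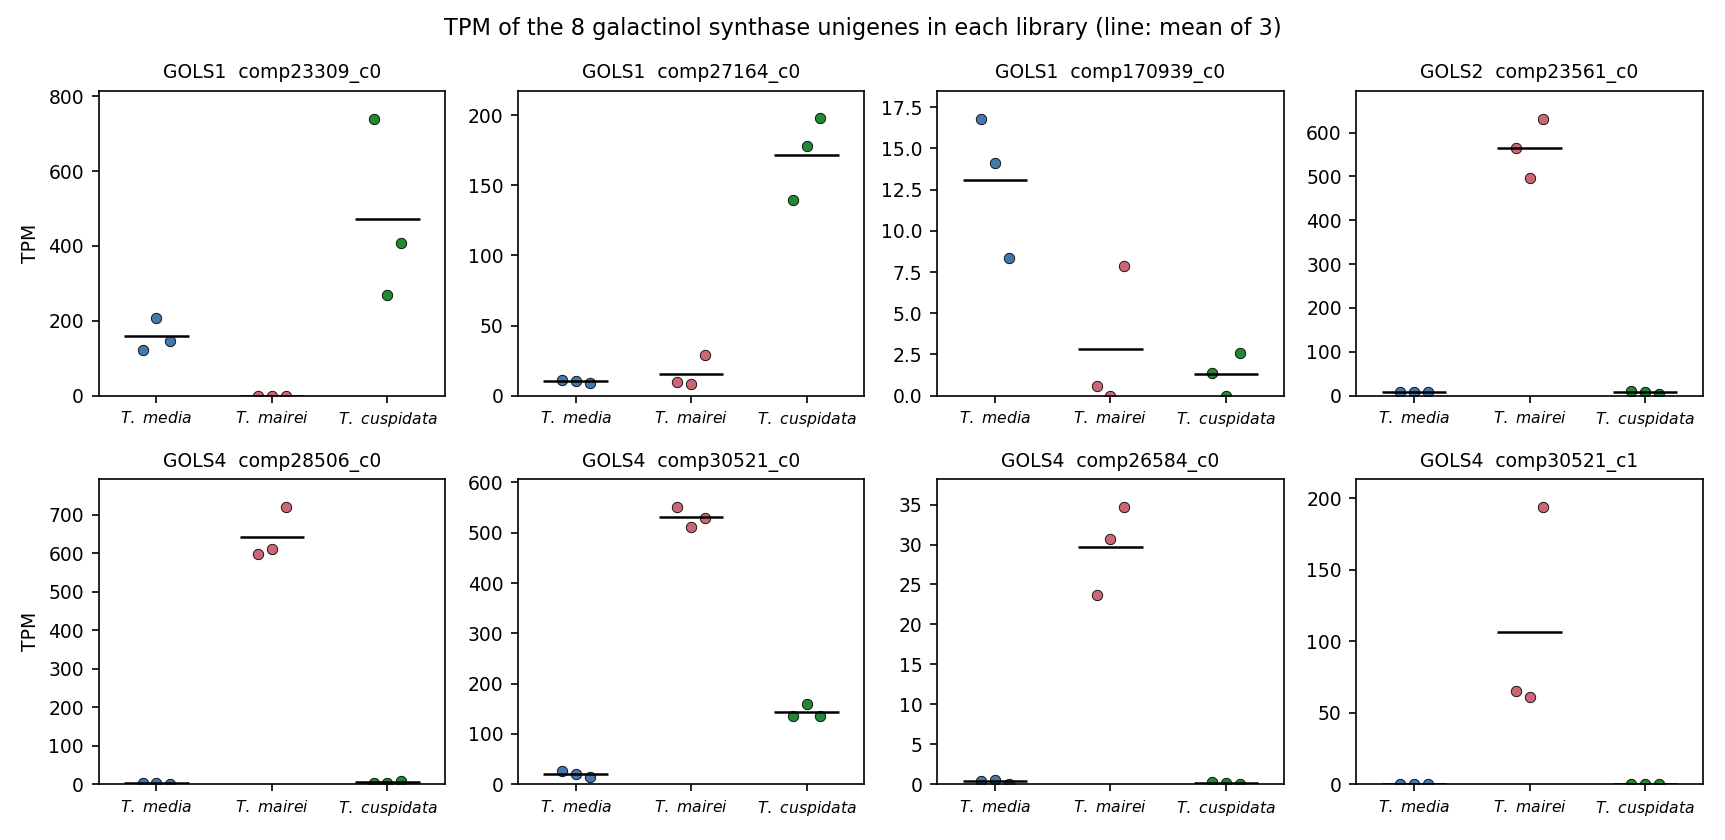
TPM (vertical axis, linear, own scale per panel) of each of the 8 GOLS unigenes in *T. media*, *T. mairei* and *T. cuspidata*. Points are libraries, drawn from replicate 1 to replicate 3 within a species, and lines are means of 3. GOLS1 comp23309_c0 is near 0 in *T. mairei* (0.03 to 0.24 TPM), whereas GOLS2 and the 4 GOLS4 unigenes are highest there.

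The leading unigene thus differed between species. In *T. media*, comp23309_c0 came first with 158.8 ± 43.0 TPM (SD, n = 3, as for all means here). It was followed by comp30521_c0 with 19.6 ± 6.21 TPM, comp170939_c0 with 13.1 ± 4.30 TPM, comp27164_c0 with 10.1 ± 0.804 TPM and comp23561_c0 with 8.77 ± 0.424 TPM. The libraries of comp30521_c0 and comp170939_c0 overlapped in level, as did those of comp170939_c0 and comp27164_c0. In *T. mairei*, comp28506_c0 (642.9 ± 66.6 TPM), comp23561_c0 (563.8 ± 67.8 TPM) and comp30521_c0 (530.3 ± 20.3 TPM) headed the list, and the libraries of neighbours in this order overlapped in level. In *T. cuspidata*, comp23309_c0 (472.5 ± 241.2 TPM) was followed by comp27164_c0 (172.0 ± 29.5 TPM) and comp30521_c0 (143.5 ± 13.3 TPM), the libraries of the last 2 overlapping in level. No sequence was at hand, so whether reads of one gene were divided among these unigenes was not tested, and the level of a single unigene is uncertain to that extent.

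Summed over the family, the level was 187.89, 263.28 and 187.15 TPM in *T. media*, 1813.02, 1716.92 and 2145.87 TPM in *T. mairei*, and 1032.53, 617.63 and 755.8 TPM in *T. cuspidata*. *T. mairei*, in which comp23309_c0 is near 0, had the highest sum in TPM, and the 3 species did not overlap. Means were 212.8 ± 43.7 TPM in *T. media*, 1892 ± 225 TPM in *T. mairei* and 802.0 ± 211.3 TPM in *T. cuspidata*. The log2 ratios of these means were -3.15 for *T. media* vs. *T. mairei*, -1.91 for *T. media* vs. *T. cuspidata* and 1.24 for *T. mairei* vs. *T. cuspidata*. Because the sum includes the selected unigene, it is a description.

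The order of *T. mairei* and *T. cuspidata* depended on the unit. In CPM, the estimated counts scaled by library size without regard to length, the sum was 263.57, 381.08 and 284.08 in *T. media*, 1283.92 and 1158.8 in the *T. mairei* libraries with counts, and 1442.9, 859.18 and 1085.92 in *T. cuspidata*. *T. media* stayed lowest, but the *T. mairei* libraries lay inside the range of *T. cuspidata*. With TMM factors, the log2 ratio of *T. mairei* to *T. cuspidata* on this scale was 0.09, and with only the unigenes of at least 400 bp in TPM it was 0.62. A difference between these scales is the weight of short sequences: comp23561_c0 held 29.8% of the summed TPM but 4.23% of the summed reads in *T. mairei*.

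Without comp23309_c0, the sum was 64.76, 56.69 and 40.54 TPM in *T. media*, 1812.99, 1716.68 and 2145.73 TPM in *T. mairei*, and 293.24, 347.91 and 347.31 TPM in *T. cuspidata*. The sum of the other 7 unigenes was lowest in *T. media* and highest in *T. mairei*. This held also in reads, with 44.5 ± 7.02 CPM in *T. media*, 1283.85 and 1158.22 CPM in *T. mairei*, and 410.7 ± 60.3 CPM in *T. cuspidata*. Single unigenes differed from the sum, as comp170939_c0 had its highest mean in *T. media* and comp27164_c0 in *T. cuspidata*. Leaving out comp23309_c0, which was selected on its values and is near 0 in *T. mairei*, tilts this sum toward *T. mairei*. The share of comp23309_c0 in the summed TPM was 74.1 ± 7.43% in *T. media*, 0.007 ± 0.006% in *T. mairei* and 56.4 ± 14.1% in *T. cuspidata*. By reads, comp28506_c0 held 56.5% and comp30521_c0 31.4% of the family in *T. mairei* (n = 2).

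**Figure D2:**
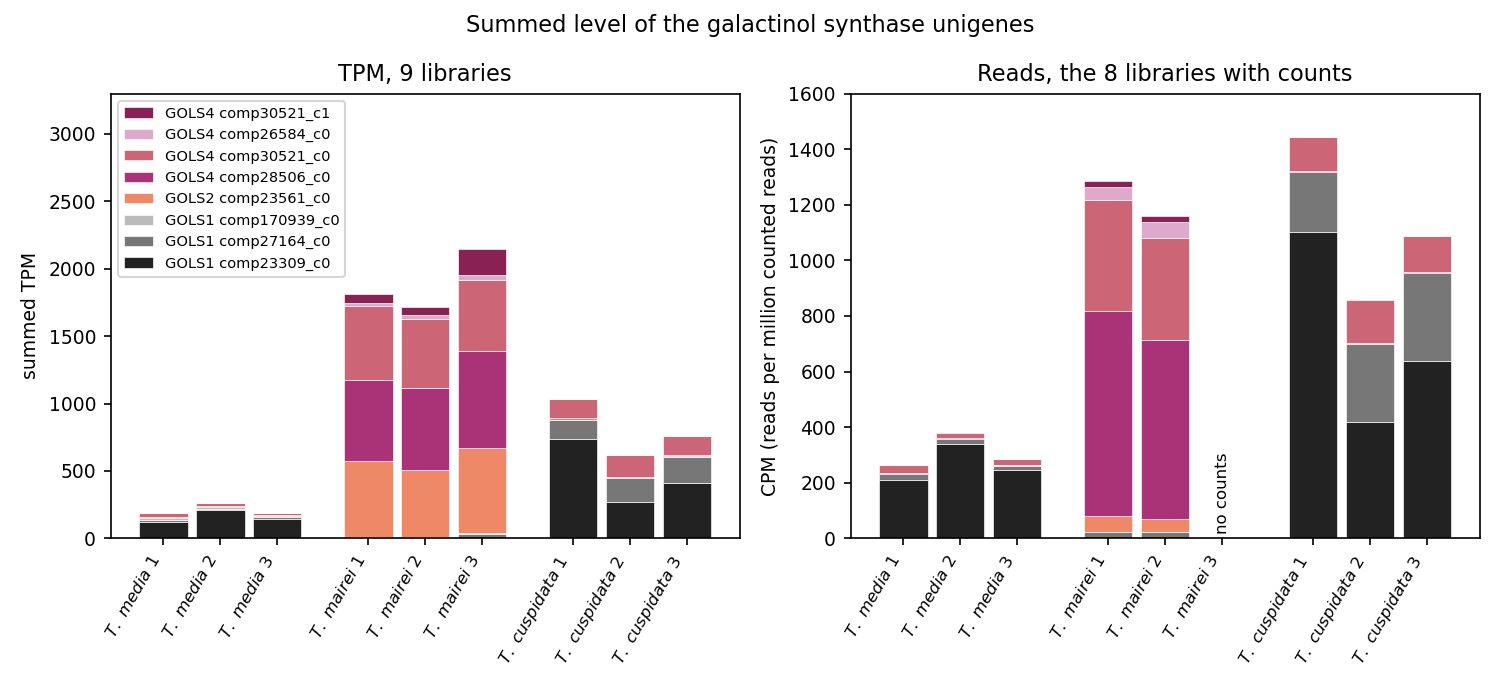
Summed level of the 8 GOLS unigenes in each library, in TPM (left, 9 libraries) and in CPM (right, the 8 libraries with counts), with 1 colour per unigene. *T. mairei* sums to 1716.92 to 2145.87 TPM without a visible part of comp23309_c0 (black), and in CPM the *T. mairei* and *T. cuspidata* bars overlap.

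The other 7 GOLS unigenes were tested across species by edgeR's quasi-likelihood test on the 8 libraries with counts. A call needed a Benjamini-Hochberg adjusted p below 0.05, taken over the 32624 unigenes tested, and a log2 fold change beyond 1 in either direction. Between *T. media* and *T. mairei*, 5 of the 7 were higher in *T. mairei*, where 23.5% of all unigenes tested were, and 1 was higher in *T. media*, where 20.8% were. The exception was GOLS1 comp170939_c0. The median log2 fold change of the 7, with comp30521_c1 and comp170939_c0 included, was -6.61, against 0.02 over all unigenes. All 7 passed the filter on low counts, comp30521_c1 through its *T. mairei* libraries alone and comp170939_c0 through *T. media* alone, so those 2 had to differ and their calls add nothing to the count.

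By unigene, the log2 fold change in this comparison (*T. media* over *T. mairei*) was -8.98 ± 0.33 (SE) for comp28506_c0 (edgeR, adjusted p = 2.89e-06). It was -6.61 ± 0.32 for comp23561_c0 (edgeR, adjusted p = 5.21e-06), -6.96 ± 0.87 for comp26584_c0 (edgeR, adjusted p = 0.000357) and -4.24 ± 0.17 for comp30521_c0 (edgeR, adjusted p = 3.21e-06). In all 4, each *T. mairei* library was above each *T. media* library. The share of all unigenes without such overlap was not computed, here or in the other comparisons. GOLS4 comp30521_c1 had 1 read in *T. media*, against 1655 in *T. mairei*. The normalized ratio was 2601.6 with a 95% counting interval of 466.3 to 102818.8 in favour of *T. mairei*. This interval and the bounds given for other unigenes cover counting error only.

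GOLS1 comp27164_c0 was not called, with a log2 fold change of -0.52 ± 0.17 (edgeR, adjusted p = 0.0299). When the reads of *T. mairei* replicate 3 were recovered from its RPKM and added, its log2 fold change was -1.37 (edgeR, adjusted p = 0.0248), which is a call. GOLS1 comp170939_c0 was higher in *T. media* by a log2 fold change of 4.62 ± 1.36 (edgeR, adjusted p = 0.0205), with a ratio of reads of 26.3 (8.8 to 129.2). It was no longer called with the recovered reads (1.45, adjusted p = 0.348), with limma on log2(TPM + 0.1) (3.96, adjusted p = 0.071) or without *T. mairei* replicate 2 (3.75, adjusted p = 0.119).

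When *T. media* was set against *T. cuspidata*, 1 of the 7 was higher in the hybrid *T. media*, beside 15.7% of all unigenes, and 2 in *T. cuspidata*, beside 10.1%. The 1 was comp170939_c0, which passed the filter through *T. media* alone, so its call adds nothing to the count here either. The median of the 7 was 0.11, against 0.04 over all unigenes, but it includes comp170939_c0 and would be lower without it. GOLS1 comp27164_c0 had a log2 fold change of -4.17 ± 0.17 (edgeR, adjusted p = 6.14e-06) and GOLS4 comp30521_c0 one of -2.77 ± 0.15 (edgeR, adjusted p = 1.58e-05), both with every *T. media* library below every *T. cuspidata* library. GOLS1 comp170939_c0 was called higher in *T. media* at 3.18 ± 1.02 (edgeR, adjusted p = 0.0404), and this call was lost when any 1 of 5 libraries was left out, namely any *T. media* library or *T. cuspidata* replicate 1 or 2 (adjusted p 0.0504 to 0.0972), with limma on log2(TPM + 0.1) (adjusted p = 0.0941), with recovered reads of *T. mairei* replicate 3 (adjusted p = 0.107) and with the replicate number as a block (3.51, adjusted p = 0.074).

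The 4 others were not called in this comparison. Their log2 fold changes were 0.11 ± 0.30 for comp23561_c0 (edgeR, adjusted p = 0.826), -0.69 ± 0.25 for comp28506_c0 (adjusted p = 0.0654) and 1.18 ± 0.89 for comp26584_c0 (adjusted p = 0.339), and their libraries overlapped. For comp30521_c1 no fold is given, since both species were at or below the floor of 3 counts.

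Between *T. mairei* and *T. cuspidata*, 5 of the 7 were higher in *T. mairei*, beside 27.8% of all unigenes, and 1 in *T. cuspidata*, beside 21.5%. One of the 5, comp30521_c1, passed the filter through *T. mairei* alone and had to differ, so its call adds nothing to the count. The median of the 7 was 6.72, against 0.06 over all unigenes, but it includes comp30521_c1 and would be lower without it. The log2 fold change was 8.28 ± 0.32 for comp28506_c0 (edgeR, adjusted p = 1.51e-06), 6.72 ± 0.33 for comp23561_c0 (adjusted p = 2.96e-06), 8.14 ± 0.94 for comp26584_c0 (adjusted p = 0.000182) and 1.48 ± 0.16 for comp30521_c0 (adjusted p = 0.000116). GOLS4 comp30521_c1, without a read in *T. cuspidata*, was at least 859.2-fold higher in *T. mairei*, computed against 3 counts over the *T. cuspidata* libraries.

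The one unigene higher in *T. cuspidata* was GOLS1 comp27164_c0, with a log2 fold change of -3.64 ± 0.20 (edgeR, adjusted p = 4.93e-06) and every *T. mairei* library below every *T. cuspidata* library. GOLS1 comp170939_c0 was not called (-1.44 ± 1.39, adjusted p = 0.4), and its sign turned with the recovered reads (1.71). The comparisons of a species with each of the others share its libraries.

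**Figure D3:**
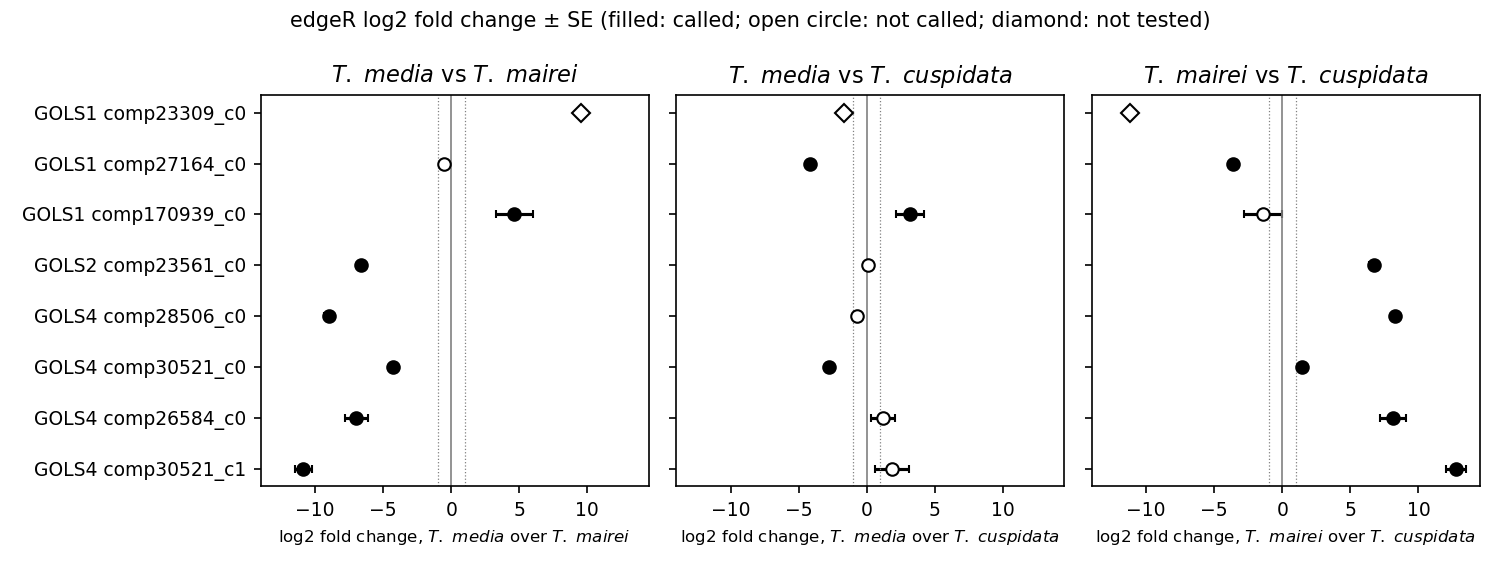
Log2 fold change of each GOLS unigene in the 3 comparisons (horizontal axis, first-named species over second), with bars of 1 SE. Filled circles were called, open circles were not, and the diamond is comp23309_c0, which was not tested. The 4 GOLS4 unigenes and GOLS2 comp23561_c0 lie on the *T. mairei* side in both comparisons with *T. mairei*, and the points of comp30521_c1 are fitted values that depend on a species with at most 1 read.

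The scale of the comparison shifted the background. In limma on log2(TPM + 1) over all 9 libraries, the log2 fold changes of all unigenes had a median of 0.605 in the first comparison (*T. media* over *T. mairei*) and -0.41 in the last (*T. mairei* over *T. cuspidata*). Calls in the first were split into 11381 for *T. media* and 6092 for *T. mairei*, and in the last into 7359 for *T. mairei* and 10562 for *T. cuspidata*, counting each under the species where it was higher. From the counts, edgeR gave 6787 and 7653 in the first and 9068 and 7027 in the last. The 5 GOLS unigenes called higher in *T. mairei* were called with the same sign in all 19 alternatives of both comparisons. For comp30521_c1, which passed the filter through *T. mairei* alone and had to differ, this adds nothing. The smallest log2 fold change of the 5 was that of comp30521_c0 in *T. mairei* vs. *T. cuspidata*, 1.40 to 1.89.

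The enzymes that supply galactinol synthase with its substrates were taken as a list of 16 unigenes. UTP-glucose-1-phosphate uridylyltransferase makes UDP-glucose, UDP-glucose 4-epimerase turns it into UDP-galactose, inositol-3-phosphate synthase makes inositol phosphate from glucose 6-phosphate, and inositol monophosphatase releases myo-inositol. Of the 16, 2 were called higher in *T. media*, beside 20.8% of all unigenes, and 8 in *T. mairei*, beside 23.5%, when these species were compared (median log2 fold change -1.33). For *T. media* against *T. cuspidata*, 5 were higher in *T. media*, beside 15.7%, and 2 in *T. cuspidata*, beside 10.1% (median 0.50). For *T. mairei* against *T. cuspidata*, 7 were higher in *T. mairei*, beside 27.8%, and 4 in *T. cuspidata*, beside 21.5% (median 0.28). Of the 8 and of the 7, 3 passed the filter on low counts through *T. mairei* alone, comp2595_c0 and MIPS comp96147_c0 among them, and had to differ. They add nothing to these counts, though the medians include them.

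The most abundant of them was the inositol-3-phosphate synthase INPS1 comp27810_c1. It had 769.82, 491.72 and 526.32 TPM in *T. media*, 65.6, 53.39 and 70.73 TPM in *T. mairei*, and 428.99, 547.82 and 669.51 TPM in *T. cuspidata*. *T. mairei* was lowest, without overlap, with log2 fold changes of 3.03 ± 0.31 (*T. media* over *T. mairei*, edgeR, adjusted p = 0.000138) and -2.84 ± 0.31 (*T. mairei* over *T. cuspidata*, edgeR, adjusted p = 0.000136). The other 4 inositol-3-phosphate synthase unigenes, 208 to 387 bp long, were all called higher in *T. mairei* than in either other species. Of all unigenes, 23.5% were called higher there than in *T. media* and 27.8% higher than in *T. cuspidata*. Among the 4, the filter on low counts fixed the calls of comp96147_c0. One of these, comp27810_c0, had 0.35, 15.52 and 12.36 TPM in *T. media*, and its call against *T. media* was lost in 6 of 19 alternatives: without either *T. mairei* library or without *T. media* replicate 2 or 3 (adjusted p 0.0528 to 0.108), with DESeq2 (adjusted p = 0.0939) and with the replicate number as a block (-3.97, adjusted p = 0.0921). Over the 5, the sum was 633.5 ± 146.1 TPM in *T. media*, 354.0 ± 16.6 TPM in *T. mairei* and 548.9 ± 120.0 TPM in *T. cuspidata*, so the class was lowest in *T. mairei*, whereas the GOLS sum in TPM was highest there. Among the 5, comp27810_c0 and comp27810_c2 share an assembly component with INPS1 comp27810_c1, and whether they are pieces of 1 gene was not tested.

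For UTP-glucose-1-phosphate uridylyltransferase, UGPA comp30015_c0 (286 bp) had 0.96, 0.0 and 0.0 TPM in *T. media*, 134.83, 114.15 and 131.52 TPM in *T. mairei*, and 165.7, 256.99 and 231.75 TPM in *T. cuspidata*. UGP comp105839_c0 was at 0 TPM in *T. media*, 35.25 to 38.08 TPM in *T. mairei* and 34.88 to 78.54 TPM in *T. cuspidata*. Both were called lower in *T. media* than in the other species. The longer comp30015_c1 (1931 bp) was detected in all libraries, at 101.32, 119.61 and 111.7 TPM in *T. media*, 38.6, 37.06 and 45.54 TPM in *T. mairei*, and 153.33, 117.83 and 110.78 TPM in *T. cuspidata*, and was called in *T. mairei* vs. *T. cuspidata* only (log2 fold change -1.13, edgeR, adjusted p = 0.000676).

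Among the UDP-glucose 4-epimerases, UEL-3 comp16860_c0 was the other substrate unigene higher in *T. media* than in *T. mairei*, where it had no reads, at least 83.3-fold against 3 counts. It was also higher in *T. cuspidata* than in *T. mairei*, at least 12.6-fold, and higher in *T. media* than in *T. cuspidata* by 2.77 on the log2 scale (edgeR, adjusted p = 0.00329). UGE1 comp27213_c0 exceeded its *T. cuspidata* level in *T. media* by a log2 fold change of 1.34, and by 1.75 in *T. mairei*, where limma on log2(TPM + 1) gave 0.96, below the threshold. The inositol-3-phosphate synthases comp141511_c0, comp27810_c0 and comp27810_c2 made up the rest of the 5 that were higher in *T. media* than in *T. cuspidata*. Leaving out *T. cuspidata* replicate 2 or 3 removed the call of comp27810_c0 (adjusted p = 0.0533 and 0.0515), as did the replicate block (5.53, adjusted p = 0.061). The monophosphatase IMPL1 comp21006_c0 completed the 4 that were lower in *T. mairei* than in *T. cuspidata* (log2 fold change -1.81, edgeR, adjusted p = 0.000268).

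Galactinol users and the enzymes that break the products down formed a list of 28 unigenes, called galactinol users for short. They were 15 unigenes named RFS for raffinose synthase, 12 alpha-galactosidases and comp22265_c0. Raffinose synthase passes galactose from galactinol to sucrose, and alpha-galactosidases remove galactose from raffinose-type sugars. Each RFS unigene with a KEGG ortholog, comp29892_c2, comp30380_c0 and comp25715_c0 among them, was annotated by it as stachyose synthetase. Raffinose synthase is therefore only the deposited name here, and which of the 2 enzymes they encode was not tested. The unigene comp22265_c0 is named STS14, a name first given to a pistil protein of potato rather than to stachyose synthase. It was not called in any comparison. Of the 28, 3 were called higher in *T. media*, beside 20.8% of all unigenes, and 9 in *T. mairei*, beside 23.5%, when these were compared (median log2 fold change -0.87). Against *T. cuspidata*, 14 were higher in *T. media*, beside 15.7%, and 5 in *T. cuspidata*, beside 10.1% (median 2.22). In the last comparison, 16 were higher in *T. mairei*, beside 27.8%, and 4 in *T. cuspidata*, beside 21.5% (median 3.36). Of the 9 and of the 16, RFS2 comp9493_c0 and the alpha-galactosidase comp24097_c0 passed the filter through *T. mairei* alone, so these 2 add nothing to the counts, though the medians include them. Some of the 28 share an assembly component, such as the alpha-galactosidases comp23726_c0, comp23726_c1 and comp23726_c2, so the counts are of unigenes and not of genes.

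The RFS unigenes were the larger part of those calls. Of the 15, 11 exceeded their *T. cuspidata* level in *T. media*, beside 15.7% of all unigenes, and 11 did so in *T. mairei*, beside 27.8% and with comp9493_c0 among them, with 1 the other way in each case, beside 10.1% and 21.5%. These counts are of unigenes, not of genes: comp17209_c0, comp17209_c1, comp17209_c2 and comp17209_c3 come from 1 assembly component. The unigenes comp29892_c1 and comp29892_c2 share another, and whether such unigenes are pieces of 1 gene was not tested. Most of the 15 are short and at a low level, such as comp11748_c0 (298 bp, mean 6.69 TPM in *T. mairei*). The longer ones differed in their order of species. Means in *T. media*, *T. mairei* and *T. cuspidata* were 70.3, 40.8 and 14.3 TPM for comp29892_c2 (3235 bp) and 22.9, 2.99 and 10.6 TPM for comp25715_c0 (3300 bp). They were 9.82, 38.7 and 35.1 TPM for comp30380_c0 (2689 bp) and 7.98, 4.27 and 7.26 TPM for comp27001_c1 (2008 bp). The summed level of the 15 was 202.5 ± 49.4 TPM in *T. media*, 274.6 ± 56.7 TPM in *T. mairei* and 72.1 ± 4.63 TPM in *T. cuspidata*. So *T. cuspidata*, in which GOLS1 comp23309_c0 and comp27164_c0 were highest, had the lowest sum of the RFS unigenes. The one higher in *T. cuspidata* than in *T. media* was RFS5 comp30380_c0 (log2 fold change -1.93 ± 0.30, edgeR, adjusted p = 0.00185). RFS6 comp25715_c0 was higher in *T. media* than in *T. mairei* (2.12, adjusted p = 0.000491) and lower in *T. mairei* than in *T. cuspidata* (-1.04, adjusted p = 0.0111), the second of which was no longer called without *T. mairei* replicate 2 (-0.95, adjusted p = 0.0765), with RLE size factors or with DESeq2 (both -0.98).

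RFS2 comp9493_c0, singled out after its values were seen, had no reads in *T. media*, 68.84, 75.83 and 38.63 TPM in *T. mairei*, and no reads in *T. cuspidata*. Against 3 counts over the libraries of a species, it was at least 2889.3-fold higher in *T. mairei* than in *T. media* and at least 2862.6-fold higher than in *T. cuspidata*. Its profile is like those of GOLS4 comp26584_c0 and comp30521_c1 in that a single species holds nearly all reads.

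Alpha-galactosidases were called in both directions, and their sums were 404.2 ± 54.3 TPM in *T. media*, 488.8 ± 160.4 TPM in *T. mairei* and 441.3 ± 51.8 TPM in *T. cuspidata*, within the spread of the libraries. The most abundant, comp29310_c0, had 97.81, 150.66 and 189.3 TPM in *T. media*, 30.26, 33.11 and 18.76 TPM in *T. mairei*, and 232.83, 213.2 and 176.96 TPM in *T. cuspidata*. It was higher in *T. media* than in *T. mairei* (1.91 ± 0.28, edgeR, adjusted p = 0.000762) and lower in *T. mairei* than in *T. cuspidata* (-2.50 ± 0.29, edgeR, adjusted p = 0.000181).

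In contrast, comp28183_c0 had 53.71, 36.78 and 41.2 TPM in *T. media*, 79.92, 113.44 and 86.78 TPM in *T. mairei*, and 66.63, 16.72 and 17.77 TPM in *T. cuspidata*, and was higher in *T. mairei* than in either of the others. *T. cuspidata* replicate 1 stood apart for it, and the call against *T. media* was lost with limma (adjusted p 0.0736 to 0.0843). Nearly without level in *T. cuspidata* was comp23726_c1, with 48.49, 57.36 and 65.64 TPM in *T. media*, 108.88, 156.5 and 65.66 TPM in *T. mairei*, and 0.56, 1.64 and 2.87 TPM in *T. cuspidata*. With a log2 fold change of 1.34 between *T. media* and *T. mairei*, comp24707_c0 was the third galactinol user higher in *T. media*. The alpha-galactosidases comp11252_c0, comp16750_c0, comp24707_c0 and comp26837_c0 were higher in *T. cuspidata* than in *T. media*, and comp11252_c0, comp24707_c0 and comp29310_c0 were higher in *T. cuspidata* than in *T. mairei*. The call of comp11252_c0 against *T. mairei* was lost without *T. cuspidata* replicate 2 or either *T. mairei* library (adjusted p 0.0769 to 0.131) and with the replicate block (-1.44, adjusted p = 0.0566). Those of comp24707_c0 and comp26837_c0 against *T. media* fell short of the fold threshold when only library sizes were used (-0.99 and -0.85) or with limma on log2(TPM + 1) (-0.93 and -0.95).

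**Figure D4:**
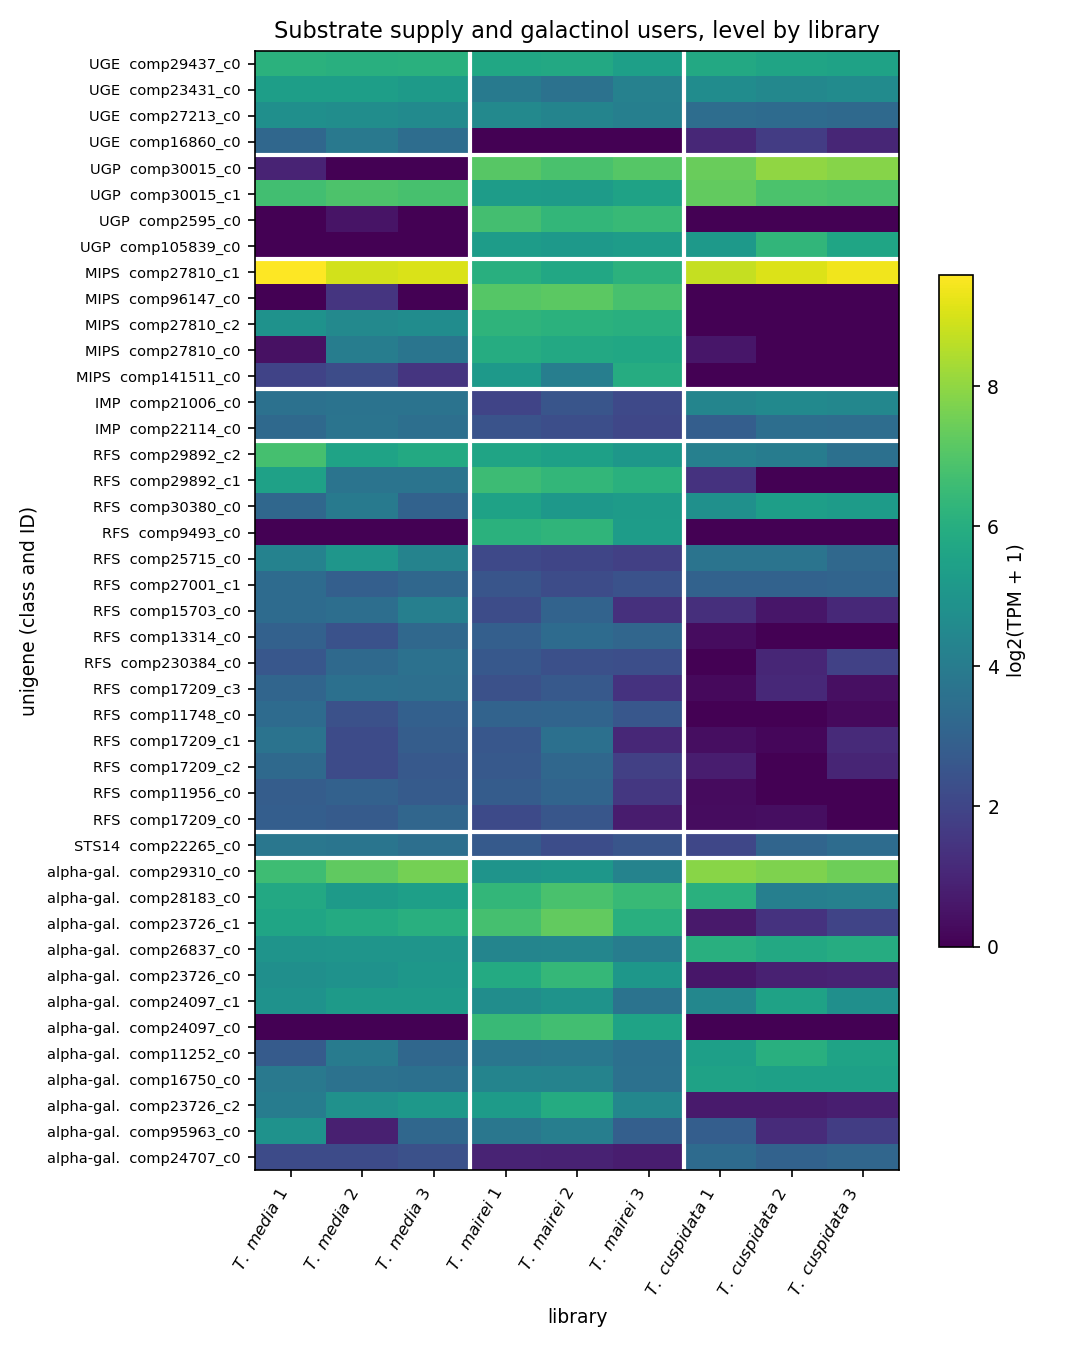
Level of 15 of the 16 substrate supply unigenes and of the 28 galactinol user unigenes (rows) in the 9 libraries (columns), as log2(TPM + 1). UGE is UDP-glucose 4-epimerase, UGP UTP-glucose-1-phosphate uridylyltransferase, MIPS inositol-3-phosphate synthase, IMP inositol monophosphatase, RFS raffinose synthase and alpha-gal. alpha-galactosidase. Most RFS rows, named so in the deposited data, are dark in *T. cuspidata*, and several short unigenes have a level in *T. mairei* only, among them RFS2 comp9493_c0 (38.63 to 75.83 TPM).

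The unigenes with the pattern most like comp23309_c0 were sought among 9117 others with a gene name and a mean of at least 10 TPM in some species. Likeness was measured as the root mean square difference between log2(TPM + 1) profiles over the 9 libraries, each centred on its own mean, and is given as a description. The nearest was RPS27B comp102802_c0, a ribosomal protein of the small subunit, with a difference of 0.619. It was followed by PCKR1 comp23777_c0, annotated as peptidylprolyl isomerase (0.658), psbW comp10329_c0 of photosystem II (0.709), CAT2 comp25257_c0, a catalase (0.729), and the RNA-binding protein RBP31 comp24848_c0 (0.793).

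Of these 5, RPS27B alone had no level in *T. mairei*: comp102802_c0 had 87.66, 125.45 and 103.04 TPM in *T. media*, 0 TPM in the *T. mairei* libraries, and 155.73, 191.73 and 199.5 TPM in *T. cuspidata*. The other 4 were low but clearly detected in *T. mairei*, at 6.15 to 7.94 TPM for PCKR1, 9.97 to 16.62 TPM for psbW, 4.59 to 6.05 TPM for CAT2 and 5.2 to 6.0 TPM for RBP31. All 5 had their lowest level in *T. mairei* and their highest mean in *T. cuspidata*, as comp23309_c0 did. They were chosen for a like profile over these same libraries, so this order is no separate result. Each of the 5 had 2 or 3 other unigenes of the same name, and the one with the highest mean in *T. mairei* was taken. In each case this one had a level there. How often that holds among all named unigenes was not examined. With the name RPS27B, comp19616_c0 had 149.3 ± 16.2 TPM in *T. media*, 480.0 ± 134.4 TPM in *T. mairei* and 0.087 ± 0.081 TPM in *T. cuspidata*. With the name CAT2, comp2151_c0 had 235.2 ± 53.6 TPM in *T. media*, 225.0 ± 32.8 TPM in *T. mairei* and 0.210 ± 0.131 TPM in *T. cuspidata*.

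**Figure D5:**
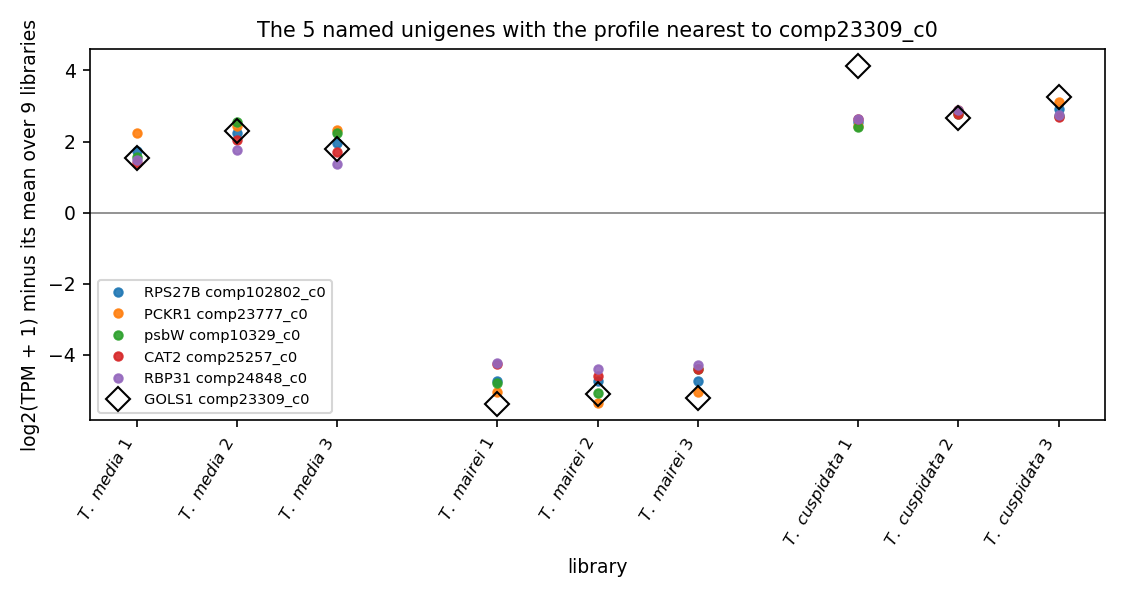
Profile of comp23309_c0 (diamonds) and of the 5 named unigenes nearest to it (circles) over the 9 libraries, as log2(TPM + 1) minus its own mean over the libraries. By the choice of near profiles, all lie low in *T. mairei* and high in *T. media* and *T. cuspidata*, and comp23309_c0 lies above the others in *T. cuspidata* replicate 1, where it had 739.29 TPM.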

How the data were processed

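The authors deposited expected counts (estimated counts of reads per unigene, not normalized) and TPM for 8 libraries, and TPM and RPKM for *T. mairei* replicate 3, made from reads assigned to their Trinity co-assembly. Aligner and counter are not given in the sources used here. Library depth is given above, and no column was left unmapped. GOLS unigenes and lists were matched in the deposited name, KEGG ortholog and annotation columns. The members and lists were chosen with earlier results of these data known. From each list, the 3 members with the highest mean TPM over the 9 libraries and any call count of 5 or fewer were named, except 1 unigene that is not reported here.

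Counts were rounded and fitted with one mean per species after filterByExpr and TMM scaling (edgeR 4.0.16, R 4.3.3), and tested by the quasi-likelihood F test. SE is the absolute log2 fold change divided by the square root of F. Alternatives used DESeq2 1.42.0, limma 3.58.1 on log2(TPM + 1) or log2(TPM + 0.1) at a mean TPM of at least 1 or unfiltered, other size factors and count filters, fits of 2 species, a replicate block, left-out libraries, and reads of *T. mairei* replicate 3 recovered from its RPKM. The total of that library came to 37823500 reads, at which 96.8% of the 5772 low values examined were whole numbers to within 0.1. Sums over unigenes of at least 400 bp, or in reads per kb, were added after the data were seen. Counting intervals are exact at 95%.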

Additional observations from a re-analysis of the deposited data

How the results depend on the processing

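Of 394 alternative fits of the 7 tested GOLS unigenes, 377 kept direction and side of the threshold, 11 lost a call, 1 gained one and 5 changed sign. The 7 include comp30521_c1 and comp170939_c0, which passed the filter through 1 species alone. All lost calls were those of comp170939_c0. In some alternative, 3 of 28 calls of the substrate list, 11 of 51 of the galactinol users, 11 of 26 of the GT8 relatives and 10 of 43 of the stress and cold list were lost. The log2 fold change of comp170939_c0 in *T. mairei* vs. *T. cuspidata* was 0.24 with limma on log2(TPM + 1), 0.16 on log2(TPM + 0.1), 0.24 without a filter and 1.71 with recovered reads, against -1.44. That of comp23561_c0 in *T. media* vs. *T. cuspidata* was -0.19 to 0.39 with one library left out, the lowest without *T. cuspidata* replicate 3. The log2 ratio of the summed GOLS level changed with the unit. With TMM-scaled counts, with unigenes of at least 400 bp, and with reads per kb of full length, it was -2.17, -2.67 and -2.24 for *T. media* vs. *T. mairei* and 0.09, 0.62 and 0.47 for *T. mairei* vs. *T. cuspidata*. Without comp23309_c0, it was -3.42, -3.32 and -3.05 for *T. media* vs. *T. cuspidata* and 1.55, 1.93 and 2.18 for *T. mairei* vs. *T. cuspidata*, against -2.61 and 2.52. Other GOLS sums and counts kept within their spread or 1.5 times. With a mean count of at least 50, calls were 12 of the galactinol users in *T. media* vs. *T. cuspidata*, and of the GT8 relatives 6 in *T. media* vs. *T. mairei* and 3 in *T. media* vs. *T. cuspidata*. With limma on log2(TPM + 0.1), 18 GT8 relatives were called in *T. media* vs. *T. mairei* and 17 in *T. mairei* vs. *T. cuspidata*. With one library left out, GT8 calls were 7 to 11 in *T. media* vs. *T. mairei* and 2 to 5 in *T. media* vs. *T. cuspidata*, lowest without *T. mairei* replicate 2 and *T. media* replicate 2. The cause was not tested, except that a stricter filter tests fewer unigenes. No pairing by replicate number was seen over all unigenes. Deviations of same-numbered libraries correlated at -0.088 to 0.049, and those of differently numbered ones at -0.067 to 0.088. The deviations of the 2 *T. mairei* libraries mirror each other by construction, and a pairing that affects only some unigenes was not tested. With the replicate number as a block, calls over all unigenes were 12637, 7108 and 14421, against 14440, 8418 and 16095 without it, and among the GOLS unigenes only the call of comp170939_c0 in *T. media* vs. *T. cuspidata* was lost (3.51). *T. mairei* enters the tests with 2 libraries, and fits without one of them assume that the other varies like the other species.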

Other observations

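Relatives of galactinol synthase in family GT8 were counted as a list of 31 unigenes. These enzymes build pectin (GAUT and GATL) or act on xylan and other sugars (GUX and PGSIP). Comparing *T. media* with *T. mairei*, 3 were called with the higher level in *T. media*, beside 20.8% of all unigenes, and 8 in *T. mairei*, beside 23.5%. Comparing *T. media* with *T. cuspidata*, there were 3 for *T. media*, beside 15.7%, and 2 for *T. cuspidata*, beside 10.1%, and comparing *T. mairei* with *T. cuspidata* 8 for *T. mairei*, beside 27.8%, and 2 for *T. cuspidata*, beside 21.5%. The counts for *T. mairei* were near that background, and the others were below it. GAUT14 comp344393_c0 and comp152576_c0 each passed the filter through 1 species alone (*T. media* and *T. mairei*), and their calls add nothing. Of the 26 GT8 calls, 11 were lost in some alternative, among them those of GAUT14 comp11149_c1 and comp175918_c0 for *T. media*, each without any 1 of several libraries (adjusted p 0.054 to 0.181 and 0.0521 to 0.123). Those for *T. media* against *T. mairei* were GAUT14 comp11149_c1 and comp344393_c0 and GAUT11 comp168700_c0, and against *T. cuspidata* GAUT14 comp175918_c0 and comp344393_c0 and GAUT1 comp28057_c0. Those for *T. cuspidata* were GAUT11 comp9700_c0 in both comparisons, PGSIP8 comp30106_c0 against *T. media* and GAUT11 comp168700_c0 against *T. mairei*. The medians of log2 fold change were -0.08, 0.10 and 0.00, near those of all unigenes. GAUT8 comp21370_c0 had 53.3 ± 2.19 TPM in *T. media*, 27.8 ± 1.62 TPM in *T. mairei* and 43.8 ± 2.84 TPM in *T. cuspidata*, and GAUT4 comp29261_c0 had 36.9 ± 5.34 TPM in *T. media*, 18.1 ± 1.45 TPM in *T. mairei* and 42.0 ± 9.25 TPM in *T. cuspidata*. Neither was called. PGSIP8 comp14070_c0 had 1.61, 2.11 and 0.10 TPM in *T. media*, 57.85, 56.29 and 93.01 TPM in *T. mairei*, and 6.12, 4.39 and 3.83 TPM in *T. cuspidata*. As for the GOLS4 unigenes, all *T. mairei* libraries were above all others. It was called higher in *T. mairei* than in *T. media* (-6.20, edgeR, adjusted p = 0.000461) and than in *T. cuspidata* (4.20, edgeR, adjusted p = 0.00168).

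A stress and cold list of 25 unigenes had 3 called for *T. media*, beside 20.8% of all unigenes, and 13 for *T. mairei*, beside 23.5%, when these were compared. There were 4 for *T. media*, beside 15.7%, against 7 for *T. cuspidata*, beside 10.1%, and 12 for *T. mairei*, beside 27.8%, against 4 for *T. cuspidata*, beside 21.5%, with medians of -1.43, -0.18 and 1.12. Of the 13 and of the 12, 3 passed the filter through *T. mairei* alone (comp19773_c0, comp200604_c0 and LEA14-A comp22476_c0) and add nothing to the counts, though the medians include them. COR413PM2 comp25509_c0 and DREB3 comp23660_c0, a DREB-type transcription factor, were called lower in *T. mairei* than in both other species, COR1.4 comp20464_c0 lower than in *T. media*, and COR413IM2 comp14097_c1 and comp24927_c0 lower than in *T. cuspidata*. The 4 for *T. media* against *T. cuspidata* were COR2 comp22634_c0 and comp25645_c0, DREB2C comp8291_c0 and HSFA5 comp90539_c0. That of comp8291_c0 was lost when any library but *T. media* replicate 3 was left out (adjusted p 0.051 to 0.0828) and with the replicate block (adjusted p = 0.0595), and that of comp25645_c0 with limma (adjusted p 0.0772 to 0.16) and with recovered reads (adjusted p = 0.078). The call of COR1.4 comp20464_c0 was lost without either *T. mairei* library (adjusted p = 0.103 and 0.13). Some names do not stand for cold genes: COR2 and COR1.4 are names of reductases, comp200604_c0 being annotated as 6'-deoxychalcone synthase, and CBF5 comp28153_c0 is a subunit of the H/ACA ribonucleoprotein complex. LEA14-A comp21878_c0, a late embryogenesis abundant protein, had 5.62, 3.46 and 3.54 TPM in *T. media*, 489.09, 344.99 and 353.6 TPM in *T. mairei*, and 729.51, 660.92 and 714.78 TPM in *T. cuspidata*. *T. media* was far below both other species. LEA14-A comp22476_c0 had no reads in *T. media*, 1181.67, 909.85 and 550.24 TPM in *T. mairei*, and 0.04, 0.0 and 0.05 TPM in *T. cuspidata*. It was at least 36526.1-fold higher in *T. mairei* than in *T. media*, against 3 counts. COR413IM2 comp14097_c1, named for a cold-regulated membrane protein, had 281.9 ± 63.2 TPM in *T. media*, 194.8 ± 39.0 TPM in *T. mairei* and 589.6 ± 94.3 TPM in *T. cuspidata* and was called higher in *T. cuspidata* than in either of the others. Against *T. mairei* its log2 fold change fell short of the threshold without *T. cuspidata* replicate 3 (-0.97), without *T. mairei* replicate 2 (-0.88) or with recovered reads (-0.98), and against *T. media* with library sizes only (-0.94). Of the 7 HSFA heat shock factor unigenes, 6 were called higher in *T. mairei* than in *T. media*, beside 23.5% of all unigenes, and 5 higher than in *T. cuspidata*, beside 27.8%. HSFA2 comp17803_c0 was called in neither without *T. mairei* replicate 1 (adjusted p = 0.0929 and 0.0692).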
